A study of Arabidopsis thaliana with 27 samples.

Results

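The genes described here are DUO1, a transcription factor of the pollen germline, and 9 genes known for expression in sperm cells or for activation by DUO1 (DAZ1, DAZ2, HTR10, HAP2, GEX1, GEX2, GEX3, TIP5;1 and PCR11). They were taken by locus identifier, 10 of the 33602 loci counted. RNA sequencing had been done on stamens and gynoecia of Arabidopsis thaliana, all in the Columbia background, in 27 libraries. The stamens came from stage 11 buds of mARF8 plants (4 libraries), of the arf6arf8 double mutant (2 libraries) and of wild type (3 libraries). ARF6 and ARF8 are auxin response factors whose messenger RNAs are cleavage targets of the microRNA miR167. The mARF8 plants carried a genomic ARF8 transgene in which the miR167 target site had been mutated. By title, mARF8 libraries 1 and 3 were line 3B, library 2 was line 4B and library 4 was of T1 plants, although the genotype tag gives line 4B for each of them. The labels name neither the arf6 and arf8 alleles nor the state of the resident ARF8 gene in mARF8 plants. Gynoecia came from stage 12 flowers of arf6arf8 (2 libraries), of mARF8 (4 libraries, line 3B by tag), of axr3 (4 libraries), of arf6axr3 (4 libraries) and of wild type (4 libraries). The axr3 plants expressed a stabilised IAA17 protein, a repressor of auxin response, from the promoter of the ovule gene SEEDSTICK, and in arf6axr3 plants that transgene was combined with an arf6 mutation. Titles name lines 15-5 and 25-2 of this transgene for some of these libraries, so that a group can mix lines. The title of axr3 library 4 reads as a cross of Columbia with line 25-2, while those of the other axr3 libraries name no cross.

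In flowering plants each microspore divides unequally into a large vegetative cell, which later grows the pollen tube, and a small generative cell, which divides once more to give the sperm. DUO1 is a MYB transcription factor made in the generative cell and the sperm, and it is needed both for the division of the generative cell and for switching on a group of sperm genes. DAZ1 and DAZ2 are zinc finger repressors activated by DUO1 that promote this division, while other targets encode a sperm histone and membrane proteins used in attachment to, and fusion with, the egg and the central cell.

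The mARF8 stamen libraries held 5125510 to 10104891 counted reads, those of arf6arf8 stamens 9718773 to 12723197 and those of wild-type stamens 3989223 to 5512416. The gynoecium libraries held 3692975 to 15374607 counted reads. Levels in stamens or in gynoecia are given as CPM, the usual unit of read counts relative to library size, scaled by the trimmed mean of M values (TMM) within a tissue, and as mean ± SD over libraries. Fold changes and adjusted p-values come from edgeR's quasi-likelihood test across every locus that passed a filter on low counts, with Benjamini-Hochberg adjustment, and a gene was called under an adjusted p of 0.05. The labels do not say that replicates were separate plants, so the p-values rest on the spread between these libraries and part of that spread may be technical. ARF8 (AT5G37020) stood at 483, 504, 263 and 463 CPM in mARF8 stamens 1 to 4, at 18.1 and 19.3 CPM in arf6arf8 stamens and at 55.9 to 74.6 CPM in wild-type stamens, on the side of wild type that each label gives. ARF6 stood at 68.4 to 76.9 CPM in mARF8, at 21.5 and 24.1 CPM in arf6arf8 and at 83.6 to 94.3 CPM in wild type. Reads of the transgene and of the resident gene cannot be told apart. RNA of whole stamens was measured, so that fewer germ cells and less RNA per germ cell cannot be told apart.

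The stretches upstream of the genes are shown first, since DUO1 is a DNA-binding protein. Sequences and positions are RefSeq's, in the assembly TAIR10.1, and each stretch is the 250 bases before the annotated gene start, written 5′ to 3′ on the strand of the gene. Capitals mark ACCGTT or ACGGTT, letters of the MYB type, on either strand, so AACCGT is ACGGTT read on the other strand and AACCGTT or AACGGTT holds both motifs overlapping. DAZ1, HTR10, HAP2, GEX3 and TIP5;1 are printed because they hold a match, and PCR11 because the largest fold change in mARF8 stamens was found for it while its stretch holds none. GEX2 also holds matches, 179 and 178 bases before its start, but is not printed because its level could not be tested.
DAZ1: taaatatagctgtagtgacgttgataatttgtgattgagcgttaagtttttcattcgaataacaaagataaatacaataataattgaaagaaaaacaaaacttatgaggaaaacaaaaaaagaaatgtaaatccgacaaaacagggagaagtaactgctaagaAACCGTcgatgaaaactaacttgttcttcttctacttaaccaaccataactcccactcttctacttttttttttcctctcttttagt
HTR10: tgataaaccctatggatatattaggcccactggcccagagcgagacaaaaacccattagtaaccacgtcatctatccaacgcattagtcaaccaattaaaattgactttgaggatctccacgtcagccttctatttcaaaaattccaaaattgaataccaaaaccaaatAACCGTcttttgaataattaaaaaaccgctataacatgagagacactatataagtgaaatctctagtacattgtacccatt
HAP2: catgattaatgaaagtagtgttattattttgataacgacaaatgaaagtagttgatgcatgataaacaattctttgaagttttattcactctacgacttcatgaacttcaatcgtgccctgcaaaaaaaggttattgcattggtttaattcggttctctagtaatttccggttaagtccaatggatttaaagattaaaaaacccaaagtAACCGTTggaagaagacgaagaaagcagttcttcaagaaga
GEX3: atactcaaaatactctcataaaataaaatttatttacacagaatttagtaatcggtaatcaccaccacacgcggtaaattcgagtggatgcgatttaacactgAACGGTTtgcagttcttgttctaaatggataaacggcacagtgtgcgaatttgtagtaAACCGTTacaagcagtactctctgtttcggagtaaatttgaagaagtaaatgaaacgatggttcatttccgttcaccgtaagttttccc
TIP5;1: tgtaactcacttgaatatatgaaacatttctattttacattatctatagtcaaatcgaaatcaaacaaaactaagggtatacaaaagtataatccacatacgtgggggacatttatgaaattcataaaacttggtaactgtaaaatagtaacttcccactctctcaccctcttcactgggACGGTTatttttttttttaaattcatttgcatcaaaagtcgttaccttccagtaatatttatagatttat
PCR11: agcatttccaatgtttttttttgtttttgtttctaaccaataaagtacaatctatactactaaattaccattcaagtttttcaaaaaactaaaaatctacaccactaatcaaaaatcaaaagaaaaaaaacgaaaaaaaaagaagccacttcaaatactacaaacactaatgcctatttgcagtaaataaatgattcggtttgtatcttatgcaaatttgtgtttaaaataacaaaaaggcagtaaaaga
The stretches lie at chr2:7477684-7477933 on the minus strand for DAZ1, and on the plus strand at chr1:6904713-6904962 for HTR10, chr4:7063005-7063254 for HAP2, chr5:5229263-5229512 for GEX3, chr3:17481746-17481995 for TIP5;1 and chr1:25763209-25763458 for PCR11. Matches began 87 bases before the start in DAZ1, 81 in HTR10, 41 and 40 in HAP2, and 70 in TIP5;1. GEX3 had 4 matches at 2 places, beginning 147 and 146 bases before the start and again from 89 bases before it. HTR10 had another match 36 bases after its start, outside the stretch shown. Counted over 300 bases (250 before to 50 after the start), 6 of the 10 genes held a match (the 5 named and GEX2), as did 3 of 6 further genes activated by DUO1 and 3 of 5 other sperm genes, against 3980 of 27443 protein-coding genes (14.5%) and 3 of 20 genes of the vegetative cell (15.0%). Among the DUO1 regulators and partners, which are not known as DUO1 targets, 2 of 5 (40.0%) held one. DUO1, DAZ2, GEX1 and PCR11 held none of these letters in that window. A match is a description of the letters and was not tested as a binding site.

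In wild-type stamens 9 of the 10 genes were detected in each of the 3 libraries. Per kilobase of exon, the unit in which genes can be set beside each other, HTR10 had the highest mean level, 115 CPM per kilobase. TIP5;1 followed at 76.3 and PCR11 at 38.0 CPM per kilobase. DAZ1 stood at 24.0 and DAZ2 at 20.3 CPM per kilobase, and DUO1, which activates them, at 10.0. GEX1 had 9.39, HAP2 4.52 and GEX3 4.36 CPM per kilobase. GEX2, which encodes a sperm surface protein for attachment to the female gametes, had 1 read in 9 stamen libraries, in arf6arf8 library 2. A count of 0 allows up to 0.307 to 0.533 CPM in the mARF8 libraries and up to 0.567 to 0.827 CPM in the wild-type libraries, counting error only. The whole of GEX2 (AT5G49150, chr5:19924354-19929256, plus strand, 17 exons) lies inside AT5G49152, a long non-coding RNA locus on the same strand that had 158 reads in stamens. How reads shared by overlapping loci were counted is not given in the sources used here, and the level of GEX2 is therefore uncertain. It failed the filter and entered no test.

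In mARF8 stamens 8 of the 9 genes tested fell relative to wild type and none rose, against 16.6% of the 18828 loci tested that were called lower and 20.4% that were called higher. The mean level in mARF8 stamens ran from 7.74% of the wild-type mean for PCR11 to 58.2% for DUO1, with a median of 28.5%. The median log2 fold change of the 9 genes was -1.72, beside 0.09 over all loci tested. For each of the 9, every mARF8 library lay below every wild-type library, which held for 21.1% of all loci. Between genes the drop was unequal, with DUO1 at one end and PCR11 at the other.

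DUO1 (AT3G60460, chr3:22342321-22343576, minus strand, 3 exons) had 6.63, 2.66, 9.51 and 6.58 CPM in mARF8 stamens 1 to 4, against 10.2, 9.82 and 12.7 CPM in wild-type stamens 1 to 3. Library 3 of mARF8 came close to the lowest wild-type library, and library 2 was far below the rest. The log2 fold change was -0.75 ± 0.34 (SE) with an adjusted p of 0.107, so DUO1 itself was not called, except without mARF8 library 3, when its log2 fold change was -1.04 and its adjusted p 0.0246. The last 10 bases of DUO1 overlap AT3G60450 on the opposite strand, and whether counting used the strand is not given.

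DAZ1 (AT2G17180, chr2:7476662-7477683, minus strand, 1 exon), the zinc finger repressor, had 4.71, 0.708, 9.20 and 3.38 CPM in mARF8 stamens 1 to 4, against 26.5, 19.3 and 27.8 CPM in wild-type stamens. Its level was 5.13-fold lower in mARF8 (log2 fold change -2.36 ± 0.52, adjusted p = 0.0107). Its paralog DAZ2 (AT4G35280, chr4:16787280-16788283, minus strand, 1 exon) had 3.31, 0.354, 8.28 and 3.38 CPM in mARF8, against 22.9, 13.6 and 24.6 CPM in wild type. The groups lay apart for both genes, and within mARF8 library 3 was the highest and library 2 the lowest. DAZ2 was 4.94-fold lower (log2 fold change -2.31 ± 0.57, adjusted p = 0.0163). Its call was lost without wild-type library 1 (adjusted p = 0.0580) or 3 (0.0602).

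HTR10 (AT1G19890, chr1:6904963-6906028, plus strand, 4 exons) encodes a histone H3 variant found in sperm chromatin. It had 26.2, 7.08, 58.0 and 21.1 CPM in mARF8 stamens 1 to 4, against 87.7, 71.6 and 88.9 CPM in wild-type stamens. The mARF8 libraries spanned a wide range, the highest of them still below the lowest wild-type library. The level was 2.90-fold lower in mARF8 (log2 fold change -1.53 ± 0.51, adjusted p = 0.0419), the weakest of the 8 calls. That call was lost without mARF8 library 1 (adjusted p = 0.0901) or 4 (0.0889), without wild-type library 1 (0.104), 2 (0.0720) or 3 (0.101), and with only mARF8 and wild type in the fit (0.0588).

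HAP2 (AT4G11720, chr4:7063255-7066878, plus strand, 17 exons) encodes the sperm membrane protein that fuses gametes. It had 2.96, 1.59, 5.42 and 3.55 CPM in mARF8 stamens, against 11.9, 9.44 and 9.19 CPM in wild-type stamens. All 3 wild-type libraries exceeded the 4 mARF8 libraries, and the level was 2.89-fold lower in mARF8 (log2 fold change -1.53 ± 0.34, adjusted p = 0.0108). GEX1 (AT5G55490, chr5:22478712-22481937, minus strand, 3 exons), a nuclear envelope protein that acts in nuclear fusion, had 1.57, 1.42, 7.05 and 3.20 CPM in mARF8, against 24.0, 16.4 and 22.8 CPM in wild type. It gave the smallest adjusted p of the group, with a 5.89-fold lower level in mARF8 (log2 fold change -2.56 ± 0.45, adjusted p = 0.00522). Both calls held when any single library was left out, as did that of DAZ1. GEX3 (AT5G16020, chr5:5229513-5232311, plus strand, 8 exons), a plasma membrane protein of the gametes, had 2.62, 0.708, 5.01 and 2.49 CPM in mARF8, against 9.93, 6.61 and 11.9 CPM in wild type. The groups did not overlap, and the level was 3.30-fold lower in mARF8 (log2 fold change -1.72 ± 0.46, adjusted p = 0.0204), a call lost without wild-type library 1 (adjusted p = 0.0644) or 3 (0.0745).

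TIP5;1 (AT3G47440, chr3:17481996-17483158, plus strand, 3 exons) belongs to an aquaporin family and is a known DUO1 target. It had 27.0, 11.5, 48.4 and 32.5 CPM in mARF8 stamens, against 78.9, 70.8 and 79.2 CPM in wild-type stamens. Its wild-type libraries lay close together, and its level was 2.53-fold lower in mARF8 (log2 fold change -1.34 ± 0.36, adjusted p = 0.0208), a call lost without mARF8 library 1 (adjusted p = 0.0538) or wild-type library 1 (0.0646) or 3 (0.0608). It overlaps AT3G47450 on the opposite strand over 91 bases. PCR11 (AT1G68610, chr1:25763459-25764207, plus strand, 1 exon), another known DUO1 target, belongs to a family of small membrane proteins named for cadmium resistance. It had 0.174, 0, 8.28 and 0.355 CPM in mARF8 stamens 1 to 4 (1, 0, 81 and 2 reads), against 35.02, 22.1 and 28.3 CPM in wild-type stamens (127, 117 and 114 reads). In mARF8 libraries 1, 2 and 4 it was close to 0, and in library 3 it was not. The fitted level was 10.5-fold lower in mARF8 (log2 fold change -3.40 ± 0.87, adjusted p = 0.0182). Without mARF8 library 3 the log2 fold change was -7.18 (adjusted p = 3.84e-05), and without wild-type library 1 or 3 the call was lost (adjusted p = 0.0621 and 0.0552).

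**Figure D1:**
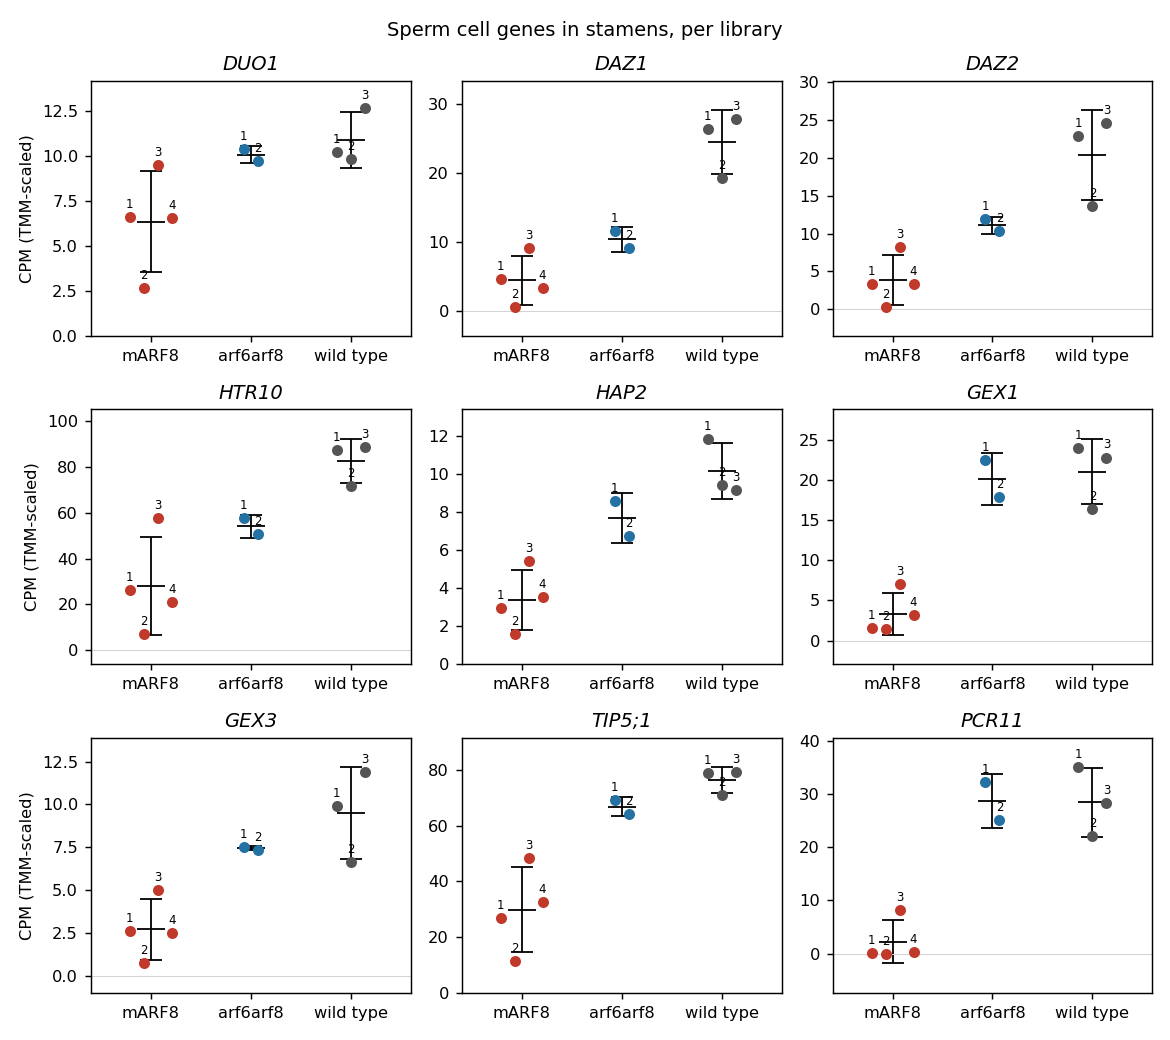
Level in CPM of the 9 detected genes in each stamen library, with mARF8, arf6arf8 and wild type from left to right. Points are libraries with their replicate numbers, and bars are the mean ± SD. In every panel the 4 mARF8 points lie below the 3 wild-type points, with mARF8 3 the highest and mARF8 2 the lowest of its group.

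The count of genes called lower was 8 with median-of-ratios scaling, with DESeq2 and with only the line 3B libraries of mARF8, but 3 without wild-type library 1 or 3. Over all loci, 37.0% were called in either direction in the main fit. The share was 36.6% with median-of-ratios scaling, 31.4% with DESeq2 and 25.3% with line 3B alone. It was 17.1% without wild-type library 1 and 15.4% without wild-type library 3. Titles also carry a running library number whose meaning the labels do not give. With only the libraries numbered up to 23, which leaves out wild-type library 3 and mARF8 library 4, the count was 0, with log2 fold changes between -3.11 and -0.64. Of all loci, 7.14% were called in that setting.

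The libraries of mARF8 differed from each other across the whole group of genes. Set against the wild-type mean of each gene, the mean deviation of the 9 genes on the log2 CPM scale was -2.38, -3.74, -0.99 and -2.26 in mARF8 libraries 1 to 4. In arf6arf8 it was -0.29 and -0.51, and the wild-type libraries lay between -0.28 and 0.14. Libraries 1 and 3 are both of line 3B by title and stood 1 above and 1 below the T1 library. Library 2, line 4B by title, was the lowest (-3.74). Lines with 1 or 2 libraries cannot be told apart from single libraries, and the part of line was not tested. Library 3, nearest to wild type, also had the lowest ARF8 level of the 4 mARF8 libraries (263 CPM) and the deepest sequencing. The part of either in the order of the libraries was not tested. DUO1 moved with the others but by less in every mARF8 library. Its deviations were -0.68, -1.92, -0.18 and -0.70 in mARF8 libraries 1 to 4, where the mean deviation of the other 8 genes was -2.59, -3.97, -1.09 and -2.45. Over the 9 stamen libraries, Pearson's r of each gene's log2 CPM with the mean of the other genes lay between 0.940 (DUO1) and 0.988 (TIP5;1), a description of libraries that differ by group.

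**Figure D2:**
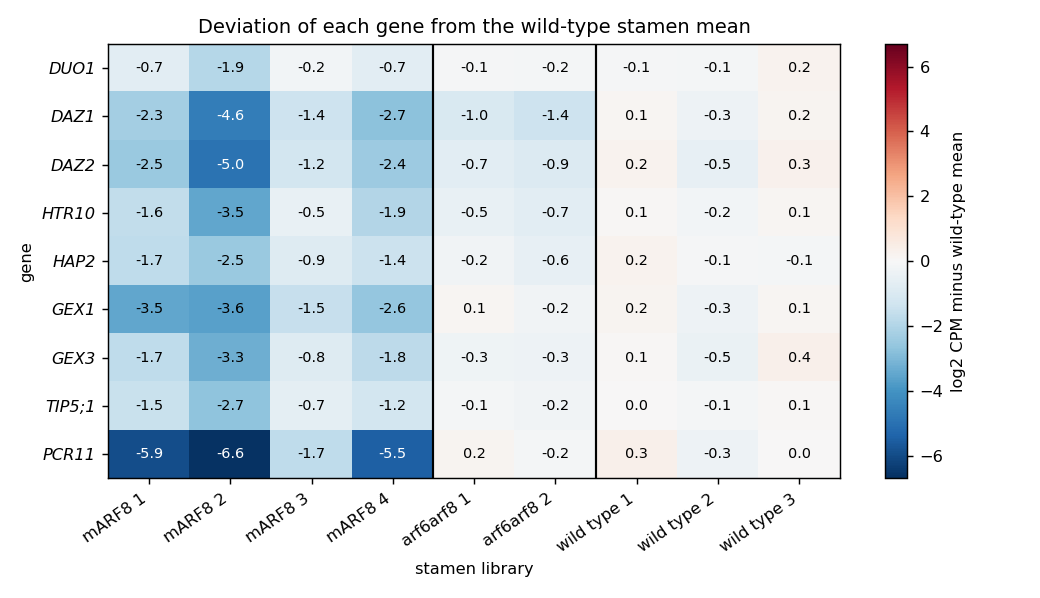
Log2 CPM of each gene minus its wild-type mean, by stamen library, with blue for lower and red for higher values. The DUO1 row is paler than the 8 rows below it in the 4 mARF8 columns, and PCR11 reaches -6.62 in mARF8 2, where it had no read.

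In arf6arf8 stamens no gene of the group was called against wild type in either direction, with edgeR or with DESeq2, against 3.04% of loci called lower and 1.34% called higher, and none had an unadjusted edgeR p under 0.05. The wild-type libraries are the same as in the mARF8 comparison. The fit takes a shared spread per gene from all stamen groups, so the scatter of the mARF8 libraries enters these tests too. DAZ1 and DAZ2 were nonetheless low in both arf6arf8 libraries. DAZ1 had 11.7 and 9.13 CPM in arf6arf8 stamens, against 19.3 to 27.8 CPM in wild type (log2 fold change -1.22 ± 0.59, adjusted p = 0.297). DAZ2 had 11.9 and 10.3 CPM in arf6arf8, against 13.6 to 24.6 CPM in wild type (log2 fold change -0.86 ± 0.64, adjusted p = 0.496). HTR10, the sperm histone, had 57.8 and 50.6 CPM in arf6arf8, against 71.6 to 88.9 CPM in wild type (log2 fold change -0.61 ± 0.61, adjusted p = 0.613). These 3 passed the threshold when only arf6arf8 and wild type were fitted, with adjusted p of 0.00551 for DAZ1, 0.0477 for DAZ2 and 0.0143 for HTR10 and almost the same fold changes, a fit that called 19.6% of loci in place of 4.39%.

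The other genes stood nearer to wild type in arf6arf8. HAP2 had 8.61 and 6.75 CPM in arf6arf8 stamens, against 9.19 to 11.9 CPM in wild type, and TIP5;1 had 69.3 and 64.3 CPM, against 70.8 to 79.2 CPM. In both cases the groups were apart by a small margin. DUO1 had 10.4 and 9.73 CPM in arf6arf8, against 9.82 to 12.7 CPM in wild type, GEX3 had 7.52 and 7.35 CPM, against 6.61 to 11.9 CPM, and the libraries overlapped. GEX1 had 22.5 and 17.9 CPM in arf6arf8, against 16.4 to 24.0 CPM in wild type, and PCR11 had 32.3 and 25.1 CPM, against 22.1 to 35.02 CPM. For these 4 genes the log2 fold changes lay between -0.34 (GEX3) and 0.02 (PCR11), and their standard errors of 0.38 to 0.89 leave room for changes in either direction. These errors also carry the scatter of the mARF8 libraries, which for PCR11 ran from 0 to 8.28 CPM. Both arf6arf8 libraries lay below every wild-type library for 5 of the 9 genes (DAZ1, DAZ2, HTR10, HAP2 and TIP5;1), against 25.9% of all loci. As a share of wild type, mean levels in arf6arf8 ran from 42.5% (DAZ1) to 101% (PCR11), with a median of 78.4% and a median log2 fold change of -0.34, beside 0.01 over all loci.

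**Figure D3:**
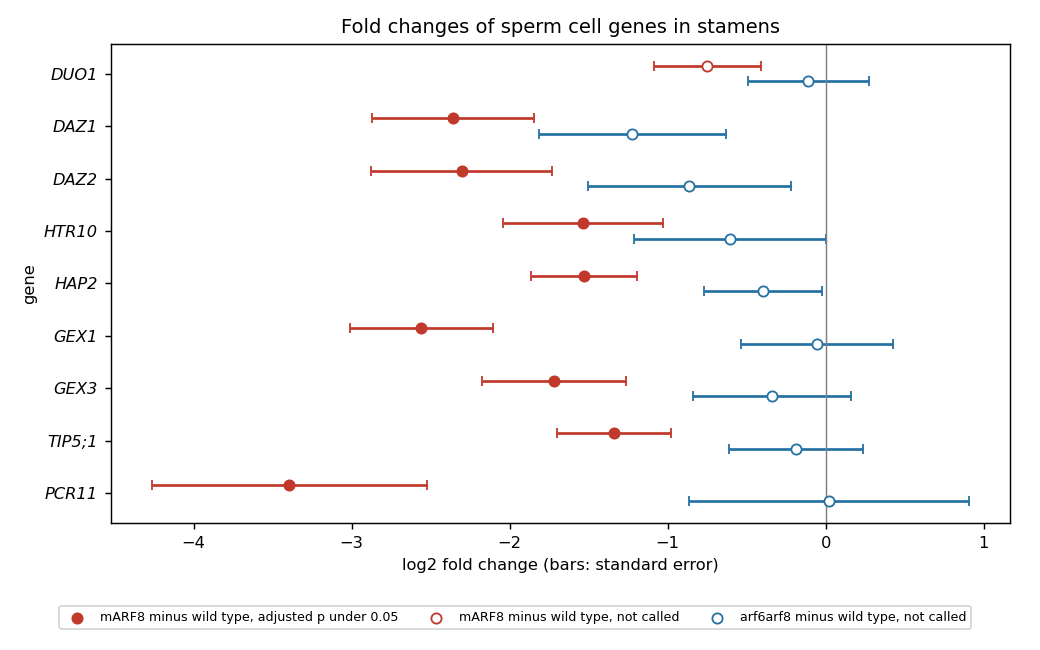
Log2 fold changes of the 9 genes against wild-type stamens, mARF8 in red and arf6arf8 in blue, with bars for the standard error. Filled points passed an adjusted p of 0.05, which 8 of the red points and none of the blue points did.

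Set directly against arf6arf8, GEX1 and PCR11 fell in mARF8 stamens, 2 of 9 genes, against 6.28% of loci called lower and 13.2% called higher. GEX1 had 1.42 to 7.05 CPM in mARF8, against 22.5 and 17.9 CPM in arf6arf8 (log2 fold change -2.50 ± 0.47, adjusted p = 0.00631). PCR11 had 0 to 8.28 CPM in mARF8, against 32.3 and 25.1 CPM in arf6arf8 (log2 fold change -3.42 ± 0.90, adjusted p = 0.0281). These are 2 of the genes whose arf6arf8 libraries overlapped wild type. For HAP2 (-1.14 ± 0.35, adjusted p = 0.0531), TIP5;1 (-1.15 ± 0.39, adjusted p = 0.0713), GEX3 (-1.38 ± 0.48, adjusted p = 0.0771) and DAZ2 (-1.44 ± 0.62, adjusted p = 0.139) the log2 fold changes missed the threshold. DUO1 had -0.64 ± 0.36, DAZ1 -1.14 ± 0.56 and HTR10 -0.93 ± 0.56. DAZ1 and HTR10 were the only genes of the 9 whose mARF8 and arf6arf8 libraries overlapped, while for 7 of 9 every mARF8 library was the lower, against 21.7% of all loci. Of all loci, 19.4% were called in either direction in the main fit, 21.7% with the replicate number as a block and 18.5% with DESeq2. Without mARF8 libraries 1 to 4 in turn the share was 14.1%, 21.1%, 33.8% and 16.0%. The count of 2 rested on single libraries. It was 0 without arf6arf8 library 1, 1 without arf6arf8 library 2 or mARF8 library 1 or 4, 4 without mARF8 library 2 and 8 without mARF8 library 3. With the replicate number as a block it was 4, with DESeq2 it was 3 with PCR11 not among them (adjusted p = 0.117), and GEX1 was called in each of these except without arf6arf8 library 1 (adjusted p = 0.0647).

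The order of the 3 groups was mARF8 below arf6arf8 below wild type by mean for 8 of the 9 genes. For PCR11 the means of arf6arf8 (28.7 ± 5.11 CPM, n = 2) and wild type (28.5 ± 6.46 CPM, n = 3) were in the reverse order by less than their SD. The neighbours arf6arf8 and wild type did not differ beyond the test's threshold for any of the genes when the 3 stamen groups were fitted together.

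Further genes known to be activated by DUO1 were low in the same libraries. Of 6 such genes, all tested, 4 fell in mARF8 stamens and none rose, with a median log2 fold change of -1.49. Over all loci, 16.6% were called lower and 20.4% higher in that comparison. DAZ3, a zinc finger gene related to DAZ1, had 1.40, 0.177, 11.0 and 0 CPM in mARF8 libraries 1 to 4, against 55.7, 31.7 and 55.9 CPM in wild type. It resembled PCR11 in being nearly undetected in 3 mARF8 libraries (log2 fold change -3.68 ± 0.86, adjusted p = 0.0134). DAN1 averaged 220 ± 134 CPM in mARF8 (n = 4) and 720 ± 70.5 CPM in wild type (n = 3), with a log2 fold change of -1.71 ± 0.46 and an adjusted p of 0.0215, a call lost without wild-type library 1 or 3 or mARF8 library 1. DAF1 and DAW1 were the other 2 called. DAA1 and OPT8, with log2 fold changes of -1.004 and -1.28, were not. In arf6arf8 none of the 6 was called, against 4.39% of all loci, and their median was -0.47.

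Sperm genes not picked as DUO1 targets gave a like count. Of 5, 4 were tested, 3 fell in mARF8 stamens and none rose, with a median log2 fold change of -1.87. The shares over all loci were 16.6% lower and 20.4% higher. DMP8 and DMP9 encode sperm membrane proteins that act with HAP2 in gamete fusion, and the reference table lists DMP9 under a name of a DUO1-activated gene. DMP8 averaged 1.27 ± 0.852 CPM in mARF8 and 6.78 ± 3.83 CPM in wild type (log2 fold change -2.29 ± 0.56, adjusted p = 0.0154). DMP9 averaged 17.5 ± 13.5 CPM in mARF8 and 66.3 ± 10.8 CPM in wild type (log2 fold change -1.88 ± 0.54, adjusted p = 0.0260). DMP8 lost its call without wild-type library 1, and DMP9 without wild-type library 1 or 3 or mARF8 library 1 or 4. The tetraspanin gene TET12 also fell, while its relative TET11 had 61.4 ± 11.5 CPM in mARF8 and 45.4 ± 5.07 CPM in wild type and was not called (adjusted p = 0.0550). SSP, whose transcript sperm carry into the zygote, had no read in the 4 mARF8 libraries, 1.09 and 1.49 CPM in arf6arf8 and 0.189 to 1.38 CPM in wild type, and it was too low to test.

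Of 5 regulators and partners of DUO1, edgeR called none in mARF8 or in arf6arf8 stamens against wild type. Over all loci, 16.6% were called lower and 20.4% higher in mARF8, and 4.39% were called in arf6arf8. Beside these shares, no call among 5 genes does not set the list apart. The median log2 fold changes were -0.24 in mARF8 and 0.29 in arf6arf8. DUO3, a regulator of germ cell division that shares targets with DUO1, averaged 43.5 ± 3.11 CPM in mARF8 and 52.1 ± 6.63 CPM in wild type (log2 fold change -0.26 ± 0.11, adjusted p = 0.101). MYB65, an anther MYB factor, averaged 25.1 ± 2.39 CPM in mARF8 and 29.6 ± 5.54 CPM in wild type (adjusted p = 0.225). Without wild-type library 2, DUO3 had an adjusted p of 0.0427. ARID1, which promotes DUO1 transcription, had 7.85 to 10.0 CPM in mARF8, 17.06 and 17.57 CPM in arf6arf8 and 7.70 to 13.8 CPM in wild type. Both arf6arf8 libraries lay above every wild-type library (log2 fold change 0.60 ± 0.23, adjusted p = 0.187). Against arf6arf8, ARID1 fell in mARF8 (-0.89 ± 0.21, adjusted p = 0.0174). It was the only one of the 5 called there, against 6.28% of all loci called lower and 13.2% called higher. These genes are not known to be limited to germ cells.

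Among 13 genes of microspore and germ cell division, 2 rose and 1 fell in mARF8 stamens, with a median log2 fold change of -0.01. These counts stand beside 20.4% of all loci called higher and 16.6% called lower, so they do not set the list apart. KRP7, an inhibitor of cyclin-dependent kinases that is removed in germ cells before division, averaged 11.4 ± 3.44 CPM in mARF8 and 4.44 ± 1.43 CPM in wild type (log2 fold change 1.32 ± 0.32, adjusted p = 0.0151). CDKA;1, the kinase that drives the division, was the other gene that rose. LBD10, which acts in microspore division, averaged 35.5 ± 20.5 CPM in mARF8 and 94.0 ± 6.64 CPM in wild type (log2 fold change -1.39 ± 0.40, adjusted p = 0.0260). KRP7 lost its call without wild-type library 1 or 3 or with line 3B alone (adjusted p = 0.0642), and LBD10 without any 1 of the wild-type libraries or mARF8 library 1 or 4. CYCB1;1, a cyclin that the DAZ proteins promote in germ cells, had 6.28 to 16.6 CPM in mARF8 and 5.67 to 9.65 CPM in wild type and was not called.

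Genes of the vegetative cell, the neighbour of the sperm in pollen, were low together with the sperm genes. Of 20, 19 were tested, 18 fell in mARF8 stamens and none rose, against 16.6% and 20.4% of all loci. Their median log2 fold change was -2.02. Their summed level was 1287 to 10464 CPM in mARF8, 12041 and 14244 CPM in arf6arf8 and 17482 to 23716 CPM in wild type. STP11, a sugar transporter of pollen tubes, averaged 0.293 ± 0.388 CPM in mARF8 and 16.9 ± 4.48 CPM in wild type (log2 fold change -5.49 ± 0.60, adjusted p = 0.000997). AGL65, a MADS factor of late pollen, averaged 5.13 ± 2.61 CPM in mARF8 and 27.2 ± 2.16 CPM in wild type (log2 fold change -2.35 ± 0.31, adjusted p = 0.00196). By library, the mean deviation of the vegetative genes in mARF8 1 to 4 was -2.56, -3.93, -1.38 and -2.44, in the order of the sperm genes. In arf6arf8 it was -1.08 and -1.22, lower than the -0.29 and -0.51 of the sperm genes. Of the 19 vegetative genes tested, 1 was called there, against 4.39% of all loci, a count that does not set the list apart. The difference in mean deviation between the lists was not tested.

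**Figure D4:**
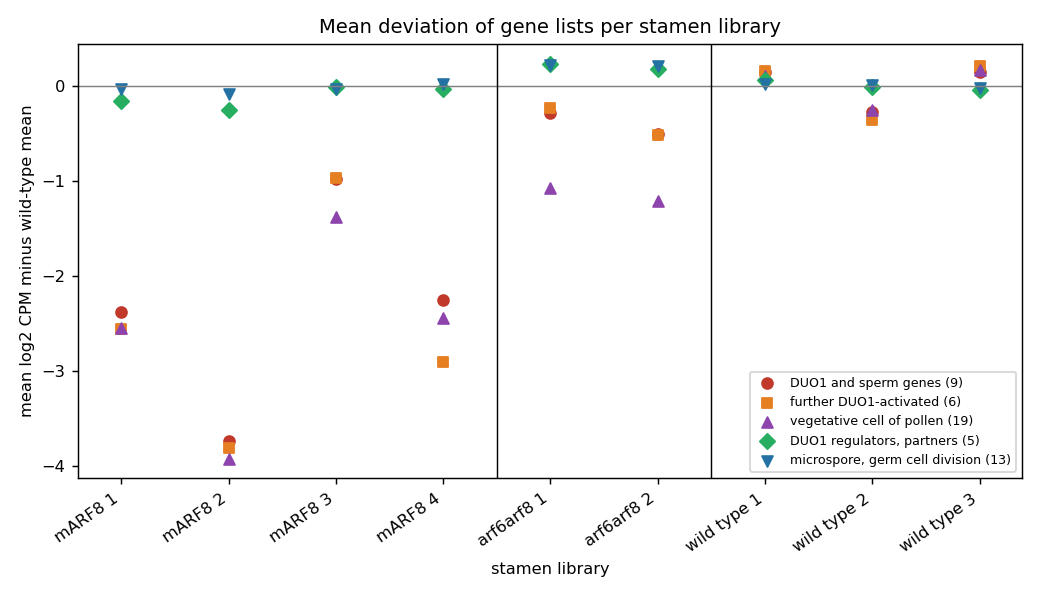
Mean over each of 5 gene lists of log2 CPM minus its wild-type mean, for each stamen library. The 9 sperm genes described here, the further DUO1-activated genes and the vegetative genes lie between -0.98 and -3.93 in the mARF8 libraries, while DUO1 regulators and division genes lie between -0.26 and 0.23 in all libraries.

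Markers of other cells and of handling were looked at in the same libraries, with unequal results between the lists. Over all loci, 20.4% were called higher and 16.6% lower in mARF8 against wild-type stamens. Of 7 tapetum genes, 3 were tested and 2 rose in mARF8 stamens, and their summed level was 113 to 545 CPM in mARF8, 96.7 and 106 CPM in arf6arf8 and 44.4 to 62.7 CPM in wild type. DYT1, TDF1 and MYB80, regulators of the tapetum, were at 0 in all mARF8 and wild-type libraries. AMS, a regulator of tapetum genes, averaged 131 ± 22.1 CPM in mARF8 and 47.6 ± 7.43 CPM in wild type (log2 fold change 1.46 ± 0.16, adjusted p = 0.00108). ATA7, a secreted tapetum protein, had 30.2, 364, 3.48 and 72.0 CPM in mARF8 libraries 1 to 4, against 0.497 to 5.29 CPM in wild type (log2 fold change 5.48 ± 1.57, adjusted p = 0.0263), highest in library 2 and lowest in library 3, where the sperm genes were lowest and highest. Without any 1 of the wild-type libraries the call of ATA7 was lost, as it was with only the line 3B libraries of mARF8 (log2 fold change 2.56, adjusted p = 0.0978). Of 5 meiosis genes, 4 were tested and DMC1, the meiotic recombinase, fell (log2 fold change -0.91 ± 0.26, adjusted p = 0.0249), a call lost without any 1 of the wild-type libraries or mARF8 library 1 and with the replicate block (adjusted p = 0.0664). The meiosis genes had a summed level of 15.8 to 22.6 CPM in mARF8, 31.9 and 36.7 CPM in arf6arf8 and 27.6 to 32.8 CPM in wild type. ZYP1A, of the synaptonemal complex, had a log2 fold change of -0.96 and was not called (adjusted p = 0.0625), but it was with the replicate block (-1.22, adjusted p = 0.0359) and with DESeq2 (adjusted p = 0.0340). Of 5 EC1 genes of the egg cell, EC1.4 alone was tested and rose to 1.84 to 3.14 CPM in mARF8, against 0.248 to 0.944 CPM in wild type (adjusted p = 0.0204, lost without wild-type library 1 or 3 and, at 0.0540, with line 3B alone), with a summed level of 1.84 to 3.36 CPM in mARF8, 0.620 and 1.29 CPM in arf6arf8 and 0.497 to 1.103 CPM in wild type. EC1.3 was at 0 in all stamen libraries. Heat shock genes summed to 36.7 to 325 CPM in mARF8, 58.3 and 84.99 CPM in arf6arf8 and 24.8 to 32.3 CPM in wild type, highest in mARF8 library 2. By mean deviation, mARF8 library 3 (0.09) lay within the wild-type libraries (-0.27 to 0.14). Of 9, 7 were tested and HSP17.4 alone was called higher (log2 fold change 2.90 ± 1.01, adjusted p = 0.0499), a call lost without any 1 stamen library of mARF8 or wild type except mARF8 3, with median-of-ratios scaling (adjusted p = 0.0536) or with only the 2 groups compared (0.0708). HSP90.1 was not called (log2 fold change 2.03 ± 0.72, adjusted p = 0.0532), but it was with DESeq2 (adjusted p = 0.0111), with the replicate block (0.0283) and with no filter (0.0483). The part of these cell types and of handling in the levels of the sperm genes was not tested.

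Outside the gene lists, the 5 loci whose log2 CPM followed the mean of the 9 genes most closely over the 9 stamen libraries, of 18738 loci ranked, were AT5G60760 and AT1G03050 (Pearson's r = 0.998 each) and AT1G35490, AT1G34630 and AT2G40116 (r = 0.997 each). AT1G03050 had 1.24 to 70.8 CPM in mARF8, 160 and 206 CPM in arf6arf8 and 259 to 404 CPM in wild type. AT5G60760 had 33.5 to 86.7 CPM in mARF8, 105 and 115 CPM in arf6arf8 and 110 to 134 CPM in wild type, a far smaller span with the mARF8 libraries in the same order. These r values describe 9 libraries that share their groups and depth.

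Wild-type stamens were next set against wild-type gynoecia. All 9 genes tested were higher in stamens and none was lower, against 41.4% of 20665 loci called higher and 39.6% called lower. Except for HAP2 and GEX1, these genes passed the filter on low counts only through the stamen libraries. For those genes the direction was thus fixed before the test, and their calls are no evidence of it. Tissue and flower stage cannot be told apart. DAZ1, DAZ2, GEX3 and PCR11 had no read in the 4 wild-type gynoecium libraries. Set against 3 reads over that group, their levels in stamens were at least 275-fold higher for DAZ1, 226-fold for DAZ2, 106-fold for GEX3 and 318-fold for PCR11. These bounds, and the ratios of DUO1 and HTR10 below, are relative to total counted reads and leave out the TMM factors. Over all libraries those factors were 0.696 to 0.732 for wild-type stamens and 1.13 to 1.16 for wild-type gynoecia, which would raise each of these values. DUO1 had 140 reads in wild-type stamens and 3 in wild-type gynoecia, all 3 in library 3. The ratio was 124 relative to total counted reads (95% counting interval 41.7 to 611). HTR10 had 1055 reads in wild-type stamens and 1 in wild-type gynoecia, a ratio of 2812 (504 to 111186). TIP5;1 had 980 reads in wild-type stamens and 7 in wild-type gynoecia, with a log2 fold change of 9.11 ± 0.47 (adjusted p = 3.75e-14).

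HAP2 and GEX1 differed from these 7 in being counted in every gynoecium library. For HAP2 and GEX1, CPM set across tissues were scaled by TMM over all 27 libraries, which gives other numbers than scaling within a tissue. On that scale HAP2 had 15.3, 12.4 and 12.1 CPM in wild-type stamens, against 1.41, 2.34, 1.97 and 1.16 CPM in wild-type gynoecia (log2 fold change 2.93 ± 0.31, adjusted p = 6.59e-09). GEX1 had 30.9, 21.6 and 30.0 CPM in wild-type stamens, against 1.23, 2.56, 2.68 and 2.90 CPM in wild-type gynoecia (log2 fold change 3.55 ± 0.34, adjusted p = 1.55e-09). GEX1 is known to be made in the embryo sac as well as in sperm. Scaled within gynoecia, HAP2 ranged over the 18 libraries from 1.31 to 3.77 CPM (6 to 43 reads) and GEX1 from 1.39 to 3.41 CPM (9 to 46 reads).

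In gynoecia only HAP2 and GEX1 passed the filter, and neither was called in any of the 4 mutant groups against wild type by edgeR or DESeq2, nor had an unadjusted p under 0.05. The shares of loci called were 11.2% for arf6arf8, 0.688% for mARF8, 15.7% for axr3 and 1.72% for arf6axr3. HAP2 averaged 2.40 ± 0.163 CPM in arf6arf8 gynoecia (n = 2), 1.62 ± 0.334 CPM in mARF8, 2.54 ± 0.990 CPM in axr3, 2.42 ± 0.335 CPM in arf6axr3 and 1.95 ± 0.607 CPM in wild type (n = 4 each). GEX1 averaged 2.39 ± 0.419 CPM in arf6arf8, 3.13 ± 0.188 CPM in mARF8, 2.27 ± 0.522 CPM in axr3, 2.49 ± 0.451 CPM in arf6axr3 and 2.65 ± 0.853 CPM in wild type. Each mutant group overlapped wild type for both genes, and the log2 fold changes ran from -0.28 to 0.42 with standard errors of 0.25 to 0.31.

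**Figure D5:**
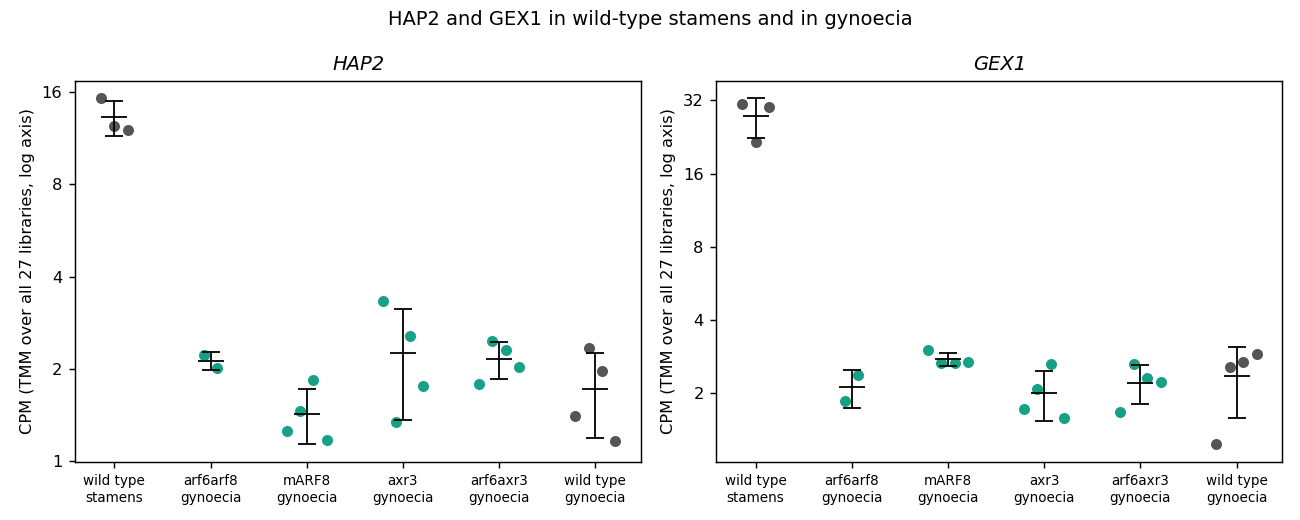
CPM of HAP2 and GEX1, scaled over all 27 libraries, on a log axis in wild-type stamens (left) and in the 5 gynoecium groups, with points for libraries and bars for the mean ± SD. Each wild-type stamen point lies above all gynoecium points, and the gynoecium groups lie within 1.16 to 3.34 CPM for HAP2 and 1.23 to 3.01 CPM for GEX1 on this scale.

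The effect of mARF8 on these 2 genes was compared between the tissues as an interaction over all 27 libraries. Tissue cannot be told apart from flower stage here, nor fully from mARF8 line. The mARF8 stamens mixed lines by title, while the mARF8 gynoecia were line 3B by tag. GEX1 had a log2 fold change lower by 2.87 in stamens than in gynoecia (difference -2.87 ± 0.51, adjusted p = 0.000422), against 11.7% of loci with a lower difference called. For HAP2 the difference was -1.31 ± 0.47 (adjusted p = 0.0416). The GEX1 difference kept its call under each alternative tried, while that of HAP2 had an adjusted p of 0.0592 with no filter on low counts and up to 0.102 when single libraries were left out. Of the other 7 genes, which had between 3 and 33 reads over all gynoecia, none was called for this difference. With so few reads the test could not decide on these genes. The effect of arf6arf8 did not pass the threshold for a difference between tissues in any of the 9 genes by edgeR, none of which had an unadjusted p under 0.05, against 6.65% of loci called. That difference was -0.68 ± 0.48 for HAP2 (adjusted p = 0.426) and 0.09 ± 0.54 for GEX1 (adjusted p = 0.957). For the other 7 genes its standard error ran from 1.09 (TIP5;1) to 3745 (DAZ2), so the test could not decide on them either.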

How the data were processed

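RNA sequencing libraries of stamens (9) and gynoecia (18) were deposited as tables of read counts per locus. Stamens came from buds of 1.5 to 1.8 mm, and reads were single-end, per the labels' protocols. The authors' counts came from TopHat2 and HTSeq with TAIR10, and edgeR was used, per the submitters' processing notes. Their versions, the counting mode and the strand setting are not given in the sources used here. In 15 files a line without a locus stayed out of all totals.

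From these counts, edgeR 4.0.16 (limma 3.58.1, R 4.3.3) was run here with TMM factors, the filterByExpr filter (minimum count 10, minimum total 15) and the quasi-likelihood test in 3 fits: stamens (18828 loci), gynoecia (18616 loci) and all libraries (20665 loci). Adjusted p-values cover all loci of a fit, and the steps were tested on simulated data. DESeq2 1.42.0 was an alternative, as were median-of-ratios scaling, no or a stricter filter, only the 2 groups compared, a replicate block, leaving out each library, line 3B alone and libraries numbered up to 23. Deviations use log2 CPM with a prior count of 2. SE is the log2 fold change divided by the square root of F. Intervals and floors (3 counts) cover counting error only.

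The genes and lists were chosen with earlier results of these data known. Named genes are the 10 genes, the 2 of each list with the smallest p in mARF8 against wild-type stamens, the 5 loci most correlated with the group's mean, ARF6 and ARF8. DAF1, DAW1, DAA1, OPT8, TET11, TET12, SSP, ARID1, CDKA;1, CYCB1;1 and the tapetum and egg cell genes at 0 were added after their values were seen. Replicate numbers were not taken to pair the samples in the main fits. Deviations of same-numbered stamen libraries correlated between -0.12 and 0.30 (median 0.17), and those of other stamen pairs between -0.28 and 0.25 (median -0.02). In gynoecia the medians were 0.03 and -0.01. A weak pairing in stamens is therefore possible. Of 35 replicate pairs none differed by as little as sampling noise. Reference positions and names come from RefSeq's TAIR10.1, which matched 32835 of 33602 loci.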

Additional observations from a re-analysis of the deposited data

Results flagged for a closer look

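In mARF8 stamens, library 3 stood far from the other 3 libraries of its group for 2 genes. PCR11 had 8.28 CPM in mARF8 stamen library 3, against 0 to 0.355 CPM in mARF8 libraries 1, 2 and 4. DAZ3 had 11.0 CPM in mARF8 stamen library 3, against 0 to 1.40 CPM in the other mARF8 libraries. In gynoecia, GEX1 had 3.41 CPM in mARF8 library 1, set apart from 3.02 to 3.04 CPM in mARF8 libraries 2 to 4, a gap that is small in CPM. In these 3 cases the gap to the nearest library took more than 0.829 of the group's range, Dixon's critical value for 4 samples, and 41 groups of 4 were looked at. Chance alone sets apart about 1 group in 20.

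The effect of mARF8 differed between stamens and gynoecia for GEX1 (difference of log2 fold changes -2.87, edgeR adjusted p = 0.000422) and for HAP2 (-1.31, adjusted p = 0.0416). Flower stage differed between the tissues as well, and so did the mARF8 lines, by title and by tag. GEX1 was lower in 4 of 4 mARF8 stamen libraries than in any wild-type stamen library, and so was HAP2, while in gynoecia the mARF8 and wild-type libraries overlapped for both genes.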

How the results depend on the processing

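The count of genes lower in mARF8 than in wild-type stamens, 8, became 0 with libraries numbered up to 23 and ran from 3 to 9 when single libraries were left out. For arf6arf8 against wild-type stamens it was 0 and became 3 with only the 2 groups compared. For mARF8 against arf6arf8 stamens it was 2 and became 4 with the replicate block, 1 with only the 2 groups compared and 1 with libraries numbered up to 23, and it ran from 0 to 8 when single libraries were left out. The block changed no other count of these genes. It made the arf6arf8 log2 fold changes of DUO1 0.12, GEX1 0.25, GEX3 0.042 and TIP5;1 0.036, all of the other sign. With libraries numbered up to 23, DUO1 had 0.0087 and GEX1 0.0082 in arf6arf8. PCR11 in arf6arf8 had -0.039 with median-of-ratios scaling and -0.044 with DESeq2. Leaving out single libraries, the arf6arf8 stamen value ran from -0.20 to 0.19 for PCR11 and from -0.26 to 0.10 for GEX1. In gynoecia GEX1 ran from -0.35 to 0.031 in arf6arf8 and from -0.28 to 0.065 in arf6axr3. None of the values that changed sign was called, and the cause was not tested. The interaction of HAP2, added as a check after seeing the data, ran from -1.69 to -1.08 and that of GEX1 from -3.67 to -2.62 when single libraries were left out, and HAP2 was not called with the block (adjusted p = 0.0509). Over all loci, calls for arf6arf8 against wild-type stamens numbered 826, against 1359 with DESeq2, 3530 with only the 2 groups compared and 287 with libraries numbered up to 23. For mARF8 against wild-type stamens they numbered 6961, against 1325 with libraries numbered up to 23 and 2895 to 8789 when single libraries were left out. For mARF8 against arf6arf8 stamens they numbered 3659, against 4085 with the block, 2593 with only the 2 groups compared and 2617 with libraries numbered up to 23. With 2 arf6arf8 libraries and few reads for most of these genes in gynoecia, small changes there were not detectable.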
